A study of Rattus norvegicus with 24 samples.

Results

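The immediate early genes described here are Fos, Fosb, Jun, Junb, Egr1, Atf3, Ier2, Ier3, Nr4a1 and Dusp1. They were chosen by symbol, and each symbol had 1 row in a table of 32883 genes, so that all 10 were found. All 10 also passed the minimum mean of 2 normalized counts and were among the 16287 genes tested.

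Immediate early genes are transcribed within minutes of a stimulus, without new protein synthesis, through transcription factors such as SRF and CREB that are already present in the cell. Many encode transcription factors themselves: FOS and JUN proteins pair to form AP-1, and others, such as DUSP1, shut the signal off again. Their transcripts are short-lived and they respond to wounding, to stretch and also to the handling of tissue after it is taken, so their level in a sample reflects its most recent history.

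The samples were urethras of 12-week-old virgin female Sprague-Dawley rats. All animals, saline controls included, had undergone simulated vaginal delivery (SVD), which combines a crush of the pudendal nerves with distension of the vagina, so there was no uninjured group. After SVD the animals received, into the aorta, saline, allogeneic mesoangioblasts (MABs-allo; vessel-associated progenitor cells grown from rat hind limb muscle) or the same kind of cells transduced to overexpress VEGF (MABs-allo-VEGF). The label WT or VEGF OE therefore describes the injected cells and not the host. Tissue was taken at 3d or 7d, giving 6 groups of 4 libraries, and libraries 6 and 7 of MABs-allo-VEGF at 7d were labelled as recovered. Values are given in the order of the library numbers, which were 6, 8, 9 and 10 for saline at 3d, 1, 2, 3 and 5 for saline at 7d, 1 to 4 for both cell-treated groups at 3d, 7.2, 9, 11 and 13 for MABs-allo at 7d and 6, 7, 11 and 12 for MABs-allo-VEGF at 7d. The labels number the libraries but do not say how the animals were handled or in which batches the RNA was prepared, so p-values measure the spread between these samples.

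The libraries were sequenced from the 3′ ends of transcripts and held 2170695 to 10166052 reads, with a median of 5246798. The cell-treated libraries of 3d were the shallowest, at 2170695 to 4491900 reads. Values are normalized counts, that is, reads divided by a size factor of the library, and 1 read was worth 1.67 to 9.23 normalized counts. Earlier work on these data had set saline library 6 and MABs-allo-VEGF library 4 of 3d apart from their groups. They also departed from them in the share of the gene AY172581.24 and in Fos, with the highest saline and the lowest MABs-allo-VEGF level of Fos at 3d. Results at 3d rest on all 24 libraries, and where the call differed the value with the 22 others is given as well. A gene was called when its adjusted p from limma was below 0.05 and its log2 difference was beyond 1.

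Promoter sequence was at hand for 6 of the 10 members, and the 250 bases before the transcription start are shown for the 4 members that were called lower at 3d than at 7d and hold the motif marked here. Fosb, also called lower at 3d, and Egr1, not called, are the other members with a promoter. Fosb holds no TGACG in its window, and neither is shown. The sequences are from RefSeq, build GRCr8, all on the plus strand and written 5′ to 3′. Capitals mark TGACG on either strand, the core of the site that CREB and ATF factors bind, and its full palindrome is TGACGTCA.

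Ier2 (chr19:40399123-40399372): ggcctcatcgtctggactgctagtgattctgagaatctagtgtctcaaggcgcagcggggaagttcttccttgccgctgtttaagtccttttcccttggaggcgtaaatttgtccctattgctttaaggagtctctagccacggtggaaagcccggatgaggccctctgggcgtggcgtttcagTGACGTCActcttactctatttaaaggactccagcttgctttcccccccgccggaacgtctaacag

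Dusp1 (chr10:17184603-17184852): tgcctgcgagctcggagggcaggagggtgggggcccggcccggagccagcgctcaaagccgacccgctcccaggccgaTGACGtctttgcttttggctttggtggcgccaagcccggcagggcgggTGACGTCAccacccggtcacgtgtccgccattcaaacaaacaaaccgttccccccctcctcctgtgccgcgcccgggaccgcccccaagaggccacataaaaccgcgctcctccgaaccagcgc

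Junb (chr19:40080876-40081125): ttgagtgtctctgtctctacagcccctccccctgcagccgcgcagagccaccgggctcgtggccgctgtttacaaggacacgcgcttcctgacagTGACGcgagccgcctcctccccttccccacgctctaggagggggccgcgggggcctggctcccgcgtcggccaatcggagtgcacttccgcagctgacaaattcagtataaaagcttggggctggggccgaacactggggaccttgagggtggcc

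Nr4a1 (chr7:134259888-134260137): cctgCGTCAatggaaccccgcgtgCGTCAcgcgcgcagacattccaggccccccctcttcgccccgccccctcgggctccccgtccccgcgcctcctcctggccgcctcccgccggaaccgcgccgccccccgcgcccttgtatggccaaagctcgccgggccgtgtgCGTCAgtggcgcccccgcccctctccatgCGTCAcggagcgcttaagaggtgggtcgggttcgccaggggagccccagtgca

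TGACG on either strand was present in the window of 5 of the 6 members with a promoter (Dusp1, Egr1, Ier2, Junb and Nr4a1), against 18.2% of all 33469 promoters. The full TGACGTCA, which contains TGACG, stood in Ier2 and Dusp1, against 1.59% of all promoters, and began 66 bases before the start of Ier2 and 124 bases before that of Dusp1. Nr4a1 had 4 copies of TGACG and Junb had 1. A CArG box, the site of SRF, was found in Egr1, which had 2, and in 1.5% of all promoters. The AP-1 site TGANTCA was in none of the 6 windows and in 6.34% of all promoters, and TATAAA was in Fosb and Junb and in 12.9% of all promoters. Such matches describe the letters and do not show that a factor was bound.

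The samples of the 2 days answered whether the members differed between early and later stages after SVD within each treatment. Junb was lower at 3d than at 7d in all 3 treatments. In cell-treated urethras Nr4a1, Ier2 and Dusp1 were lower at 3d as well, Ier3 in MABs-allo and Fosb in MABs-allo-VEGF. No member was called higher at 3d, and Fos was the member whose level leaned the other way in all 3 treatments without passing the test. Across members the median log2 difference of 3d minus 7d was -0.73 in saline, -1.17 in MABs-allo and -1.20 in MABs-allo-VEGF, when that of all genes tested was 0.05, 0.06 and 0.05.

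In saline-injected rats 1 of 10 members was called lower at 3d, against 0.602% of all genes tested. In rats given MABs-allo 5 of 10 were called lower, against 6.05% of all genes, and in rats given MABs-allo-VEGF 5 of 10, against 2.24%. The numbers of members called by edgeR and by DESeq2 were 1 and 1 in saline, 6 and 6 in MABs-allo and 5 and 5 in MABs-allo-VEGF, and with 22 libraries limma called 1, 5 and 5. Shares of all genes, here and below, are those of limma with all libraries. They are not given for edgeR, DESeq2 or the 22 libraries, whose counts therefore have no share to be read against. With sample quality weights limma called 3 in MABs-allo, without Dusp1 and Nr4a1, and when each library was left out in turn the count in MABs-allo-VEGF was 3 without library 2 of 3d.

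**Figure D1:**
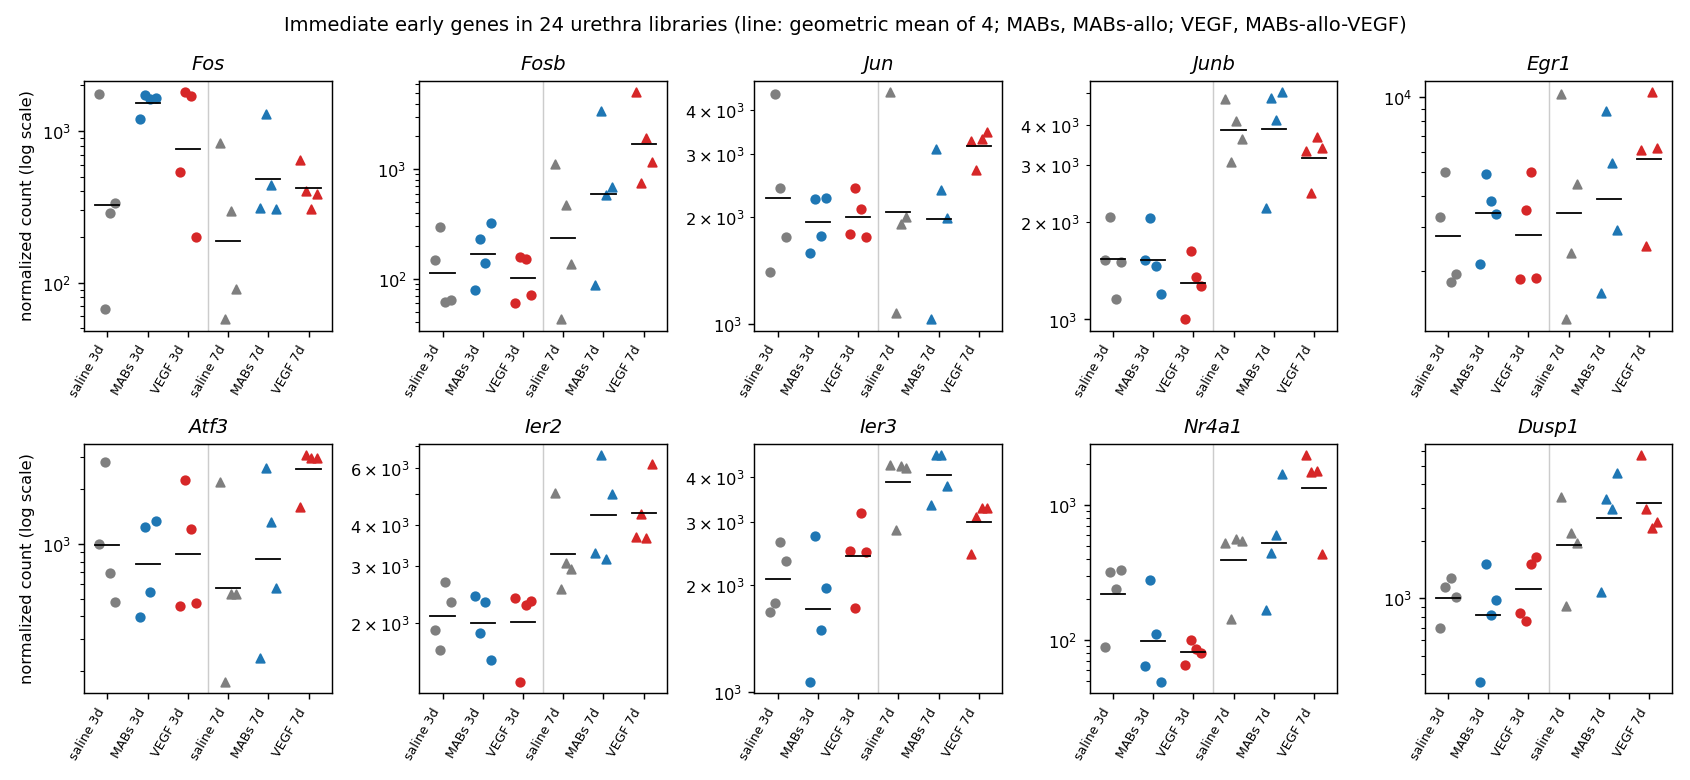
Normalized count on a log axis of each of the 10 members in every library, with a line at the geometric mean of the 4 libraries of a group, circles for 3d and triangles for 7d (MABs, MABs-allo; VEGF, MABs-allo-VEGF). All 12 Junb circles lie below all 12 triangles, and the Fos circles spread from 67 to 1800.

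Junb, an AP-1 subunit that often opposes the action of Jun, was at 1529, 2073, 1154 and 1510 normalized counts in saline libraries 6, 8, 9 and 10 of 3d, and at 4810, 3059, 4099 and 3610 in libraries 1, 2, 3 and 5 of 7d. In MABs-allo it was at 1527, 2057, 1459 and 1199 at 3d and at 2218, 4828, 4150 and 5038 at 7d. In MABs-allo-VEGF it was at 1000, 1634, 1352 and 1273 at 3d and at 3312, 2453, 3668 and 3379 at 7d. All 12 libraries of 3d were thus below all 12 libraries of 7d, and Junb was the one member for which this held. Here and below, the share of all genes whose groups did not overlap was not counted, so such statements describe the values only. The log2 difference of 3d minus 7d was -1.32 ± 0.25 (SE) in saline (adjusted p = 0.00938, limma), -1.34 ± 0.25 in MABs-allo (adjusted p = 0.000423, limma) and -1.29 ± 0.25 in MABs-allo-VEGF (adjusted p = 0.000883, limma). The saline call was lost when only the 2 saline groups were fitted (adjusted p = 0.0766, limma), at the same difference.

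Ier2, a nuclear protein of the early response, was at 1904, 1654, 2677 and 2326 normalized counts in saline at 3d and at 5023, 2551, 3054 and 2931 at 7d. With MABs-allo the counts were 2421, 1860, 2326 and 1541 at 3d and 3286, 6583, 3151 and 4980 at 7d. In MABs-allo-VEGF it was at 2390, 1317, 2270 and 2338 at 3d and at 3686, 4339, 3649 and 6191 at 7d. The days did not overlap in either cell-treated group, and in saline 1 library of 3d exceeded the lowest of 7d. The difference was -1.10 ± 0.27 (SE) in MABs-allo (adjusted p = 0.00346, limma) and -1.11 ± 0.27 in MABs-allo-VEGF (adjusted p = 0.00524, limma), close to the threshold of 1, so that leaving out either of 2 libraries in each treatment brought it under that threshold. In MABs-allo these were library 4 of 3d (-0.97) and library 9 of 7d (-0.89), and in MABs-allo-VEGF library 2 of 3d (-0.90) and library 12 of 7d (-0.94).

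Ier3, an early gene known for effects on cell survival, was at 1065, 2730, 1496 and 1953 normalized counts in MABs-allo at 3d and at 3345, 4613, 4604 and 3772 at 7d. These groups did not overlap, and the difference was -1.24 ± 0.24 (SE; adjusted p = 0.000693, limma). In saline it was at 1677, 1780, 2630 and 2323 at 3d and at 4329, 2838, 4300 and 4236 at 7d, again without overlap, but the difference of -0.90 did not reach the threshold on size (adjusted p = 0.0394, limma). In MABs-allo-VEGF it was at 2476, 1717, 3173 and 2462 at 3d and at 2434, 3089, 3274 and 3275 at 7d, and the days overlapped.

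Nr4a1, an orphan nuclear receptor induced in muscle, vessels and immune cells, showed the widest span between groups next to Fosb. In MABs-allo-VEGF it was at 65, 100, 86 and 80 normalized counts at 3d, from 12 to 18 reads a library, and at 2333, 1743, 1766 and 435 at 7d. The groups did not overlap, and the difference was -4.01 ± 0.64 (SE; adjusted p = 0.000276, limma), a 16.1-fold lower level on the scale of log2(normalized count + 1). In MABs-allo it was at 64, 279, 111 and 49 at 3d, from 9 to 51 reads, and at 167, 444, 602 and 1702 at 7d. There 1 library of 3d exceeded the lowest of 7d, and the difference was -2.39 ± 0.64 (adjusted p = 0.00699, limma). In saline it was at 90, 317, 239 and 327 at 3d and at 524, 142, 563 and 541 at 7d, which overlapped.

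Dusp1, the phosphatase that inactivates MAP kinases, was at 362, 1521, 822 and 976 normalized counts in MABs-allo at 3d and at 1078, 3334, 2958 and 4561 at 7d. The groups overlapped through 1 library of each day, and the difference was -1.69 ± 0.45 (SE; adjusted p = 0.00669, limma). In MABs-allo-VEGF it was at 833, 758, 1519 and 1656 at 3d and at 5681, 2958, 2349 and 2538 at 7d, without overlap, and the difference was -1.49 ± 0.45 (adjusted p = 0.022, limma). That call was lost without library 1 of 3d (adjusted p = 0.0626), library 2 of 3d (adjusted p = 0.0781) or library 6 of 7d (adjusted p = 0.0826). In saline it was at 696, 1148, 1279 and 1017 at 3d and at 3403, 916, 2220 and 1946 at 7d, which overlapped.

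Fosb, an AP-1 subunit whose protein products can outlast the stimulus, was at 59, 158, 151 and 71 normalized counts in MABs-allo-VEGF at 3d and at 5064, 747, 1952 and 1160 at 7d. Every library of 7d was above every library of 3d, and the difference was -4.08 ± 0.92 (SE; adjusted p = 0.00323, limma). MABs-allo libraries held 78, 230, 138 and 320 at 3d and 87, 3447, 582 and 693 at 7d, where 1 library of 7d was as low as those of 3d. Limma did not call that difference of -1.81, whereas edgeR (adjusted p = 0.0242) and DESeq2 (adjusted p = 0.00715) called Fosb. In saline it was at 148, 294, 61 and 63 at 3d and at 1126, 42, 476 and 135 at 7d, which overlapped.

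**Figure D2:**
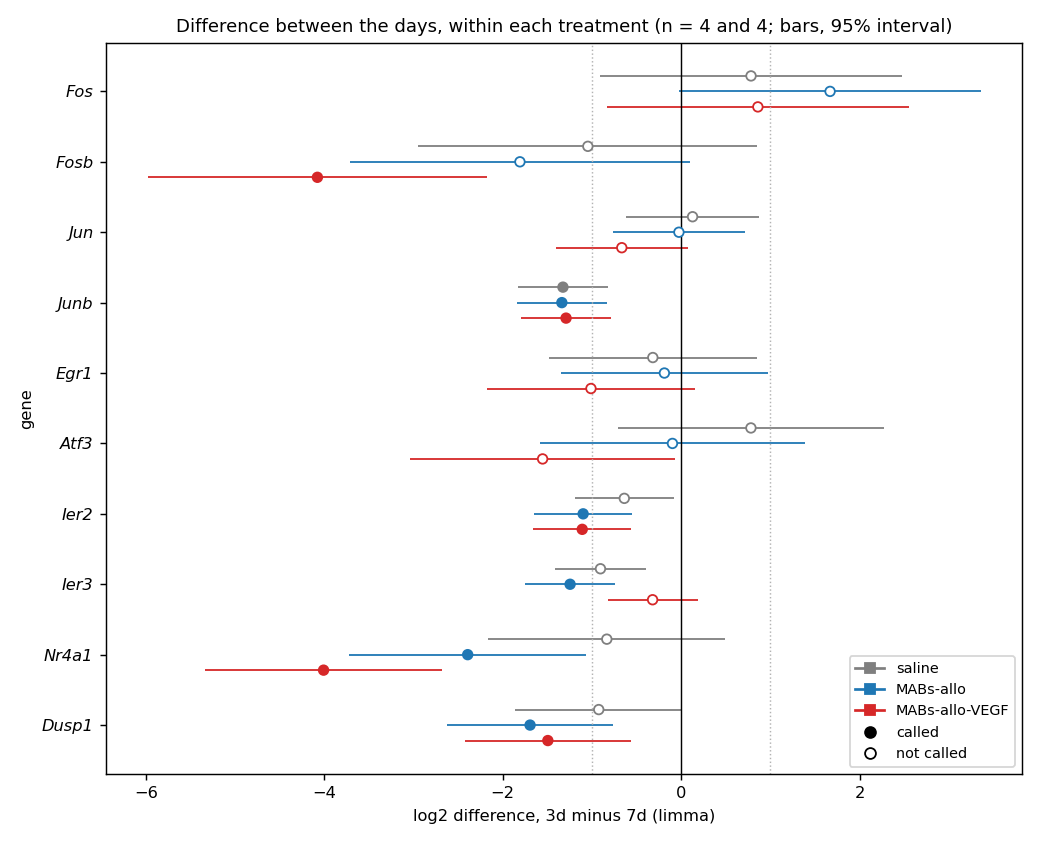
Log2 difference of 3d minus 7d (x axis) of each member (y axis) in each treatment, from limma with 4 libraries a group and 95% intervals, with filled points for called members and dotted lines at a difference of 1 in either direction. Junb is filled in all 3 treatments at -1.32, -1.34 and -1.29, and Fos lies to the right of 0 in all 3.

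Jun, Egr1 and Atf3 were not called between the days in any treatment. Jun, the main partner of Fos in AP-1, was at 1401, 4421, 2405 and 1752 normalized counts in saline at 3d and at 4472, 1075, 1906 and 1997 at 7d. In MABs-allo it was at 1576, 2238, 1763 and 2251 at 3d and at 1028, 3093, 2382 and 1980 at 7d, and in MABs-allo-VEGF at 1784, 2400, 2104 and 1759 at 3d and at 3254, 2698, 3299 and 3461 at 7d. The last pair of groups did not overlap, but the difference of -0.67 was under the threshold on size and its adjusted p was 0.201 in limma.

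Egr1, a zinc finger factor of the growth and injury response, was at 3302, 4994, 1798 and 1935 normalized counts in saline at 3d and at 10333, 1272, 2361 and 4456 at 7d. MABs-allo libraries held 2123, 4918, 3813 and 3396 at 3d and 1623, 8791, 5448 and 2926 at 7d, and MABs-allo-VEGF libraries 1855, 3509, 4979 and 1870 at 3d and 6120, 2510, 10452 and 6223 at 7d. The days overlapped in each treatment, and 6 of the 12 libraries of 7d exceeded every library of 3d.

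Atf3, a stress-induced factor that marks injured neurons among other cells, was at 999, 2822, 697 and 479 normalized counts in saline at 3d and at 2182, 174, 529 and 531 at 7d. With MABs-allo the counts were 398, 1242, 545 and 1340 at 3d and 235, 2616, 1326 and 577 at 7d, and with MABs-allo-VEGF 460, 2250, 1206 and 476 at 3d and 1607, 3086, 2982 and 2985 at 7d. Its direction varied, with a difference of 0.78 in saline and -1.55 in MABs-allo-VEGF, and the 95% intervals were wide, from -0.70 to 2.27 and from -3.04 to -0.07.

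Fos, the partner of Jun and the first described of these genes, did not follow the others. In saline it was at 1756, 67, 289 and 338 normalized counts at 3d and at 829, 57, 298 and 91 at 7d. In MABs-allo it was at 1207, 1723, 1634 and 1665 at 3d and at 313, 1288, 444 and 307 at 7d, and in MABs-allo-VEGF at 541, 1800, 1715 and 200 at 3d and at 649, 405, 304 and 385 at 7d. The 3d libraries ranged from 67 to 1800, and 6 of the 12 exceeded every library of 7d. The differences of 0.78, 1.67 and 0.86 were not called in any treatment.

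The share of counts in AY172581.24, a gene of the mitochondrial genome by its name, was set beside Fos. It was 7.31% in saline library 6 of 3d, 12.1% to 20.7% in MABs-allo at 3d and 15.6% to 20.6% in MABs-allo-VEGF libraries 1 to 3 of 3d, but 0.269% to 3.46% in the other 16 libraries. In the 8 libraries with the high share Fos was at 541 to 1800 normalized counts, and in the other 16 at 57 to 1288. At 3d the libraries that departed from their groups in this share, saline 6 and MABs-allo-VEGF 4, departed in Fos too, at 1756 and 200. Other libraries went the opposite way. MABs-allo 1 of 3d had the highest share, 20.7%, and the lowest Fos of its group, 1207. MABs-allo-VEGF 1 of 3d had a share of 15.6% and Fos at 541. Junb was below its 7d range in every 3d library. The shares at 7d were 0.269% to 1.14%, and of the 3d libraries only saline 8, at 0.409%, lay in that range. For Junb, share and day can thus hardly be told apart. Of the 8 libraries with the high share, the cell-treated ones held 2170695 to 4491900 reads and saline 6 held 5249467. MABs-allo-VEGF 4 of 3d, with a low share, held 4039089. The part that this share, or depth, has in the level of Fos was not tested.

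**Figure D3:**
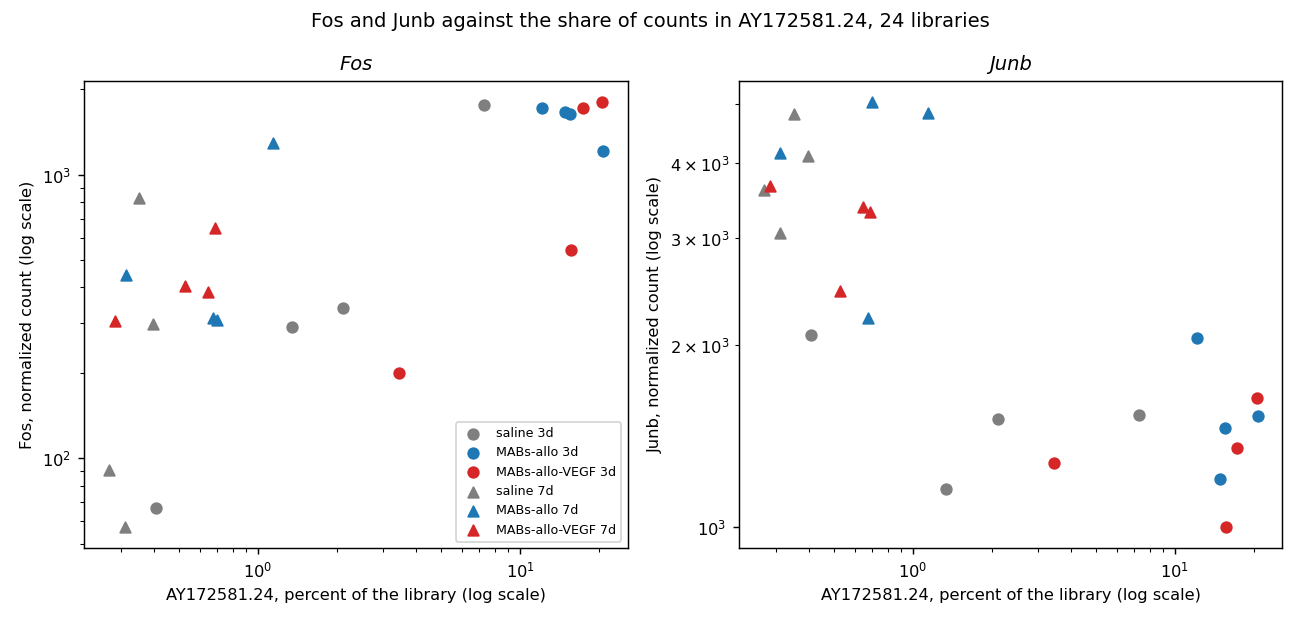
Normalized count of Fos (left) and Junb (right) against the percent of the library's counts in AY172581.24, on log axes, 1 point per library. Fos is at 541 to 1800 in the 8 libraries with a share above 5%. Junb is lower in every 3d circle than in the 7d triangles. Of the circles only saline 8 (0.409%) lies in the range of share of the triangles, 0.269% to 1.14%.

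The comparisons with saline answered whether the injected cells moved the members at the same day. These comparisons share the saline libraries of that day. At 3d no member was called in MABs-allo against saline, when 12.3% of all genes were, or in MABs-allo-VEGF against saline (0.0307% of all genes) or MABs-allo-VEGF against MABs-allo (0.00614%). At an unadjusted p below 0.05 these comparisons had 1, 1 and 0 of 10 members in limma, 0, 1 and 0 in edgeR and 0, 1 and 0 in DESeq2, and the shares of all genes were 31.4%, 17.9% and 6.13% in limma. Neither edgeR nor DESeq2 called a member. In MABs-allo-VEGF against saline limma called only 5 of 16287 genes, whereas the study, with DESeq2 and thresholds of the same size, reported far more. That no member was called by limma there is thus no evidence that the members were unchanged.

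Fos had the lowest p in MABs-allo against saline at 3d. It was higher by 2.23 ± 0.82 on the log2 scale (SE; adjusted p = 0.0657, limma), and the groups overlapped through saline library 6, at 1756, above all 4 MABs-allo libraries. With 22 libraries the difference was 3.04 (adjusted p = 0.0043, limma), and that of MABs-allo-VEGF against saline was 2.66 (adjusted p = 0.0206, limma). Since this choice takes out the highest saline and the lowest MABs-allo-VEGF value of Fos itself, it bears on the tested values, and these p-values are no support for a difference in Fos. Without saline library 8, the lowest, the difference in MABs-allo was 1.47 (adjusted p = 0.276, limma). The saline libraries 8, 9 and 10 also had the lower share of AY172581.24, at 0.409% to 2.11%.

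Nr4a1 had the lowest p in MABs-allo-VEGF against saline at 3d, at -1.40 ± 0.64 (SE; adjusted p = 0.251, limma). Its 4 MABs-allo-VEGF libraries lay at 65 to 100, and of the saline libraries only number 6, at 90, fell in that range. When the cell-treated groups of 3d were set against each other Ier3 had the lowest p, MABs-allo-VEGF minus MABs-allo being 0.49 ± 0.24 (adjusted p = 0.819, limma), with overlapping groups.

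At 7d limma called no gene at all in any of the 3 comparisons of treatments, members included (0% each). The study, with DESeq2, did report some genes in MABs-allo-VEGF against MABs-allo at 7d. That limma called no member is thus no evidence that the members were unchanged. At an unadjusted p below 0.05 limma had 0 of 10 members in MABs-allo against saline (6.23% of all genes), 3 of 10 in MABs-allo-VEGF against saline (6.34%) and 2 of 10 in MABs-allo-VEGF against MABs-allo (2.78%). The counts were 0, 3 and 0 in edgeR and 0, 3 and 0 in DESeq2, and neither tool called a member.

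The 3 members of MABs-allo-VEGF against saline at 7d were Fosb, Atf3 and Nr4a1. Fosb, with the lowest p, was at 747 to 5064 normalized counts in MABs-allo-VEGF and at 42 to 1126 in saline, a difference of 2.85 ± 0.92 (SE; adjusted p = 0.552, limma). Atf3 was at 1607 to 3086 against 174 to 2182, and Nr4a1 at 435 to 2333 against 142 to 563, and the groups overlapped for all 3 genes. The saline library with the high Fosb, Atf3, Egr1 and Jun values was the same one, number 1. The libraries labelled as recovered, 6 and 7, had the highest and the lowest Fosb of the 4, at 5064 and 747.

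Atf3 had the lowest p in MABs-allo-VEGF against MABs-allo at 7d, at 1.64 ± 0.72 (SE; adjusted p = 1, limma). Its MABs-allo libraries ranged from 235 to 2616, and 3 of the 4 MABs-allo-VEGF libraries were above that range. Ier3 went the opposite way, at 2434 to 3275 in MABs-allo-VEGF and 3345 to 4613 in MABs-allo. Its groups did not overlap, but the difference of -0.43 was not called (unadjusted p = 0.0895, limma). Fos had the lowest p in MABs-allo against saline at 7d, at 1.34 ± 0.82 (adjusted p = 0.875, limma), with 307 to 1288 against 57 to 829.

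**Figure D4:**
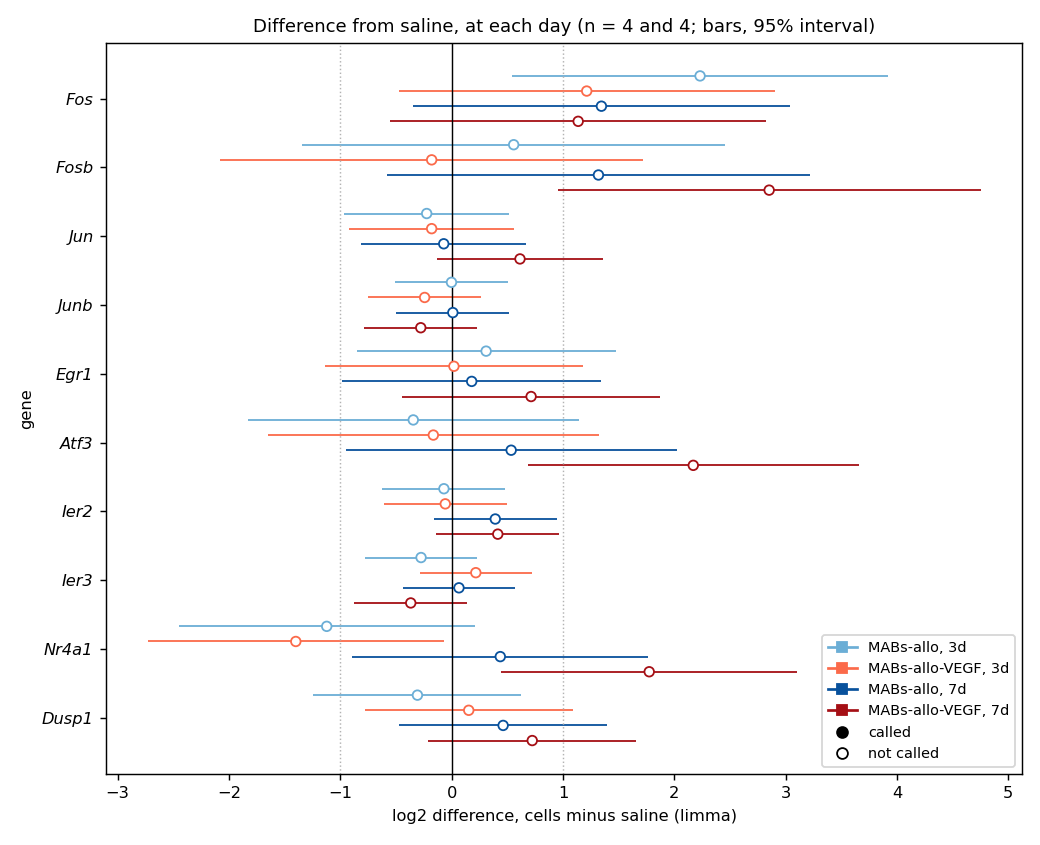
Log2 difference from saline (x axis) of each member (y axis) in MABs-allo and MABs-allo-VEGF at 3d and 7d, from limma with 4 libraries a group and 95% intervals. All points are open because no member was called, and the intervals of Fosb, Atf3 and Nr4a1 in MABs-allo-VEGF at 7d and of Fos in MABs-allo at 3d lie above 0, that of Nr4a1 in MABs-allo-VEGF at 3d below 0.

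Whether the difference between the days itself differed between treatments was tested as an interaction. No member was called in MABs-allo against saline (0% of all genes), MABs-allo-VEGF against saline (0%) or MABs-allo-VEGF against MABs-allo (0.00614%). At an unadjusted p below 0.05 there were 0, 3 and 1 members in limma, 0, 2 and 1 in edgeR and 0, 2 and 1 in DESeq2, and neither of the latter called one. Of all 16287 genes tested, 2212, 1341 and 831 were below that p in limma. Nr4a1 had the lowest p, where the log2 difference of MABs-allo-VEGF minus saline at 3d, less that at 7d, was -3.17 ± 0.91 (SE; adjusted p = 0.492, limma). With 22 libraries this was -3.59 (adjusted p = 0.0423, limma), a choice that takes out the lowest saline value of Nr4a1 at 3d. With all libraries the difference between the days was thus not shown to vary with the treatment for any member.

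Correlations were taken over 45 pairs of members, as Spearman's rho and Pearson's r. Tests were by permutation with 100000 draws, two-sided, adjusted over the 45 pairs. Over all 24 libraries 27 of 45 pairs passed an adjusted p of 0.05 for rho, all positive. The 36 pairs without Fos all had rho above 0, with a median of 0.64, and 0 of the 9 pairs with Fos passed. Because the days differ, correlations were also read within the 12 libraries of each day, a split chosen after seeing the data. At 7d rho was above 0 in 42 of 45 pairs with a median of 0.52, and 11 pairs passed an adjusted p of 0.05, all positive. At 3d the median rho was 0.15, and 5 pairs passed, 3 positive and 2 negative. By Pearson's r 16 pairs passed at 7d and 7 at 3d.

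At 7d Jun and Egr1 had rho 0.90 and r 0.89 over 12 libraries (permutation p = 0.00011 and adjusted p = 0.00495 for rho, adjusted p = 0.00202 for r, and r 0.79 without the 2 libraries farthest from the median of Jun). Fosb and Egr1 were correlated at both days, with rho 0.81 and r 0.78 at 7d (permutation, adjusted p = 0.0245 and 0.0133) and rho 0.83 and r 0.88 at 3d (permutation, adjusted p = 0.0169 and 0.0119). Without the 2 libraries farthest from the median of Fosb, r was 0.53 at 7d and 0.83 at 3d.

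Ier2 was correlated with Fosb and Atf3 in opposite directions at the 2 days, in a split by day that was chosen after seeing the data. At 7d its rho was 0.75 with Fosb and 0.73 with Atf3 (permutation, adjusted p = 0.0392 and 0.042), with r of 0.66 and 0.68 (adjusted p = 0.0525 and 0.0465). At 3d its rho was -0.87 with Fosb and -0.86 with Atf3 (permutation, adjusted p = 0.0139 for both), with r of -0.77 and -0.83 (adjusted p = 0.0265 and 0.0127). Without the 2 libraries farthest from the median of Fosb or of Atf3, r was -0.71 and -0.73 at 3d and 0.50 and 0.55 at 7d. Over all 24 libraries rho was 0.53 with Fosb and 0.22 with Atf3 (permutation, adjusted p = 0.0182 and 0.33), with r of 0.63 and 0.22 (adjusted p = 0.00242 and 0.339). After the group means were subtracted it was 0.014 and -0.014 (permutation, adjusted p = 0.957 for both), with r of 0.19 and 0.073 (adjusted p = 0.594 and 0.819). The difference between the days in these correlations was not tested. The 3d libraries with the highest Atf3, saline 8 and MABs-allo-VEGF 2, at 2822 and 2250, were among those with the lowest Ier2, at 1654 and 1317.

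Fos had no pair that passed at 3d, where its rho ran from -0.51 with Ier2 to 0.42 with Fosb. At 7d all 9 of its rho values were above 0, and those with Ier2 (0.75) and Dusp1 (0.74) passed, both with an adjusted permutation p of 0.0392, r of 0.72 and 0.69 with adjusted p of 0.0291 and 0.0446, and r of 0.55 and 0.44 without the 2 libraries farthest from the median of Fos. After the group means were subtracted over all 24 libraries, rho was above 0 in 42 of 45 pairs, with a median of 0.38, and 16 pairs passed. Jun and Atf3 then had the highest rho, 0.86 (r 0.87, permutation, adjusted p = 0.0036 for rho and 0.00247 for r, r 0.81 without the 2 libraries farthest from the median of Jun).

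**Figure D5:**
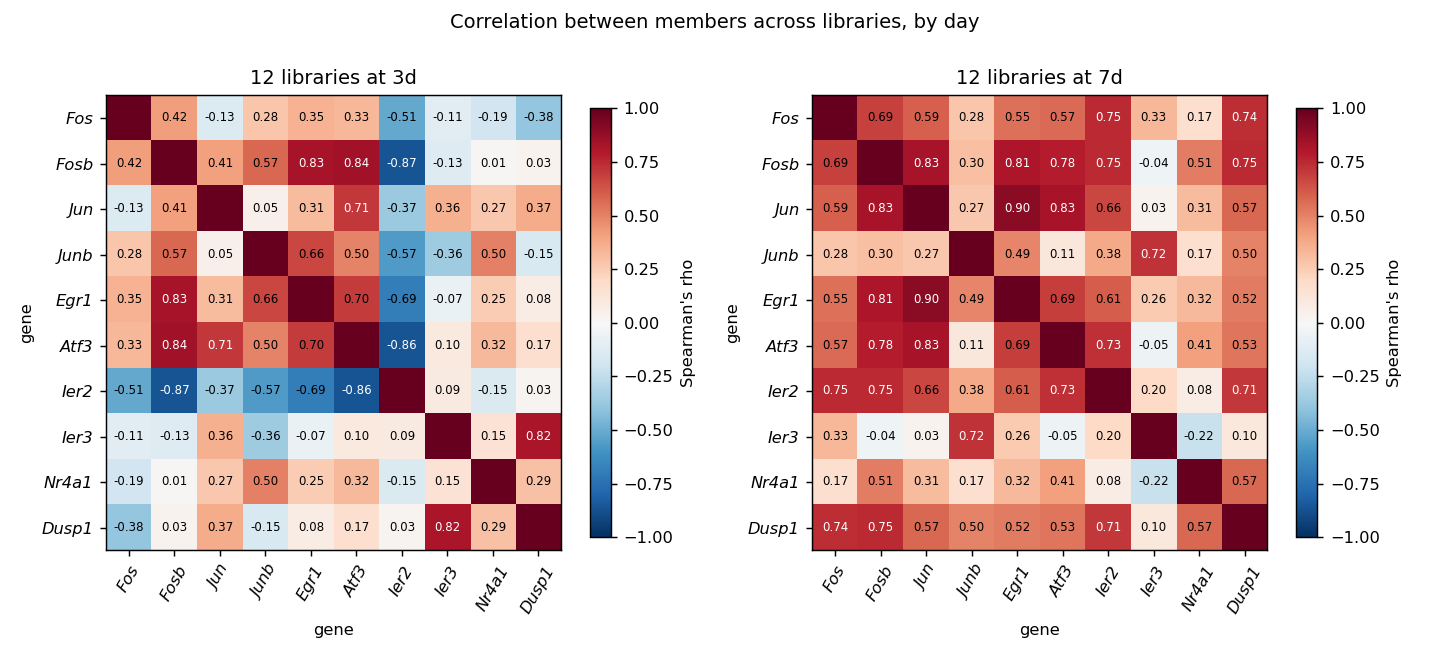
Spearman's rho between each pair of members across the 12 libraries of 3d (left) and the 12 of 7d (right), in color and as printed values. Ier2 has negative values with Fosb (-0.87) and Atf3 (-0.86) at 3d and positive ones (0.75 and 0.73) at 7d.

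The 10 other genes whose pattern over the 24 libraries was most like the mean of the members, among 13847 genes with a mean of at least 10 normalized counts, were Ppp1r15a (rho 0.90), Zfp36 (0.86), Nfkbia (0.85), Sgk1 (0.84), Btg2, Plk3, Jund, Mafk, Maff and Apold1 (0.79 to 0.78). Of these, 9 stood in the lists of early-response genes used here. Those lists were chosen with earlier results of these data known, and their share of all genes compared was not counted. The 9 is therefore a description only. The 10 genes most like Fos alone, a set chosen after its values were seen, were led by Emilin2, Plec and Nfatc2 (rho 0.88, 0.88 and 0.85), and 0 of them were among the first 10. All these values are descriptions over libraries that share depth and day.

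Other early-response genes were listed by role, and their calls between the days went in both directions. Among early-response effectors and secreted factors 0 of 23 tested were called in saline, 6 lower and 3 higher at 3d in MABs-allo, and 7 lower and 3 higher in MABs-allo-VEGF. The shares of all genes called higher at 3d were 2.59%, 17% and 13.1% in the 3 treatments. The stress phosphatase subunit Ppp1r15a (-1.25 and -1.14), the kinases Sgk1 (-1.50 and -1.77) and Plk3 (-2.49 and -2.55) and Gadd45g (-1.17 and -1.27) were called lower in both cell-treated groups. Thrombospondin Thbs1, which had the largest difference of the list at 5.86 in MABs-allo, Rgs2 (3.85 and 3.24) and Trib1 (4.39 and 3.32) were called higher in both.

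Among the other EGR, NR4A and KLF early transcription factors 0 of 26 were called in saline, 5 lower and 2 higher in MABs-allo, and 5 lower and 0 higher in MABs-allo-VEGF. Nr4a3, a relative of Nr4a1, had the largest difference of the list (-2.79 and -2.50), and Srf was lower too (-1.97 and -1.36). The other relative, Nr4a2, went the opposite way in MABs-allo, where it was called higher at 3d (1.14, adjusted p = 0.0185, limma). Whether Srf had a part in the level of the members was not tested. In the other AP-1 and ATF family 1 of 14 was called higher in saline, 4 higher and 1 lower in MABs-allo, and 4 higher and 3 lower in MABs-allo-VEGF. Small Maf protein Maff (-1.68 and -1.65) was the one called lower in both, Jund (-1.56) and Atf4 (-1.15) were lower in MABs-allo-VEGF, and Atf2 (4.60 and 3.86) had the largest difference.

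Of 19 feedback inhibitors 1 was called lower in saline, 2 lower and 4 higher in MABs-allo, and 1 lower and 2 higher in MABs-allo-VEGF, with the largest difference in Spred1 (5.28). Among 27 upstream kinases and factors 1 was higher in saline, and 7 were higher and 1 lower in each of the cell-treated groups, with the largest difference in Map2k7 (5.04). Map2k7 was a low gene, with a mean of 26.1 normalized counts over the 24 libraries. Of 13 heat shock genes 1 was lower in saline (Hspb1, -1.12), 6 in MABs-allo and 1 in MABs-allo-VEGF (Hspa1b, -2.38), and 0 were higher. The largest difference of that list, 3.40 for Hsp90aa1 in saline, was not called. Of 10 injury cytokines and chemokines 1 was lower in saline (Cxcl1, -5.05), 2 in MABs-allo (Cxcl1 and Cxcl2) and 3 were higher in MABs-allo-VEGF (Il1b, Ccl3 and Ccl4).

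In MABs-allo against saline at 3d, where no member was called, 14 of 131 tested genes of the 7 lists of signalling and injury genes were called, or 10.7%, near the 12.3% of all genes. They were Atf2 (2.58), Fosl2 (3.09), Rgs2 (2.96), Thbs1 (5.05), Spred1 (4.46), Dusp16 (3.37), Map2k7 (4.91), Map2k4 (3.59), Creb1 (2.90), Mrtfa (4.23), Mef2c (1.28) and Mef2a (1.14), all higher, and Spry1 (-1.25) and Hspe1 (-1.35), lower. Fosl2, Mrtfa and Map2k7 had means of only 3.80, 9.85 and 26.1 normalized counts over the 24 libraries. In MABs-allo at 3d 1 read was worth 5.42 to 9.23, so these differences rest on few reads. No other gene of these lists was called in a comparison of treatments. Of the 27 upstream kinases and factors 6 were called, all higher, and 21 were not.

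Markers of muscle were present in every library, with a sum of 5 striated muscle markers of 41936 to 339416 normalized counts. In MABs-allo against saline at 3d, where Fos had its lowest p, 2 of 5 striated muscle markers were called higher, and 3 of 6 macrophage, 4 of 5 mast cell and 2 of 5 fibroblast markers lower, and their part in the level of Fos was not tested. Markers of cell types moved with the day as well. The summed level of 6 smooth muscle markers was 22487 to 166141 normalized counts in saline, 78464 to 137376 in MABs-allo and 56099 to 116253 in MABs-allo-VEGF at 3d, and 150304 to 287478, 182905 to 203079 and 112309 to 265038 at 7d. Of these markers Acta2 was called lower at 3d in all 3 treatments (-1.94, -1.94 and -1.40), and Synpo2 higher in both cell-treated groups (4.03 and 3.36). The sum of 5 adipocyte markers was 847 to 8282, 405 to 1641 and 395 to 1809 at 3d and 2946 to 28844, 1106 to 34890 and 593 to 3684 at 7d, with 2, 5 and 0 of 5 called lower at 3d. The sum of 6 macrophage markers in MABs-allo was 895 to 10116 at 3d and 5576 to 18090 at 7d, with 2 of 6 called lower. In the same comparison the sum of 5 mast cell markers was 235 to 369 at 3d and 539 to 909 at 7d, with 4 of 5 called lower, and that of 5 neutrophil markers 651 to 2622 and 3189 to 7424, with 2 of 5 called lower. Among the other marker lists and treatments, 1 of 8 urothelial and squamous markers was lower in saline, 1 lower and 1 higher in MABs-allo, 1 of 4 endothelial markers was higher in saline and 1 of 5 neutrophil markers was higher in MABs-allo-VEGF. In such bulk tissue fewer cells of a type and less RNA per cell cannot be told apart, and the part of tissue make-up in the lower level of Junb and the other members at 3d was not tested.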

How the data were processed

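Urethral RNA was sequenced by the authors as 3′ mRNA libraries (24 libraries, 6 groups of 4). Per the methods of the study, reads were trimmed with fastq-mcf, aligned to Rnor6.0 with HISAT2, multi-mapped reads were discarded, reads per gene were counted with HT-seq Count and counts were divided by DESeq2 size factors. The deposited signal is therefore a normalized count. Its steps gave whole reads for 100% of values (within 0.1 of a whole number), and these reads gave the depth and served edgeR 4.0.16 and DESeq2 1.42.0.

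Values were tested as log2(normalized count + 1) with limma 3.58.1 in R 4.3.3, with an eBayes trend and 1 fit of the 6 groups, over 16287 genes with a mean of at least 2, two-sided with Benjamini-Hochberg adjustment over all of them. A log2 difference on this scale understates the change of low genes. Correlations used Python 3.11.15 with scipy 1.17.1. The steps were tested on simulated data.

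Members and gene lists were chosen with earlier results of these data known. The level in every library is given for each member. Differences with their error and adjusted p are given for members called and for the member with the lowest p of each comparison, and a few others were added after their values were seen. List genes are named where called between groups at 3d or where largest in their list. Some list genes called between the days were named beyond this rule after their values were seen. Genes of like pattern had the highest Spearman rho with the mean of the members.

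Groups came from the labels. No annotation of the files' build was used, and promoters are from RefSeq in another build.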

Additional observations from a re-analysis of the deposited data

Results flagged for a closer look

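In 5 of the 60 sets of 4 libraries (10 members in 6 groups), 1 library lay far from the other 3 on the log2 scale, where chance gives about 1 in 20. The gap to the nearest library, as a share of the group's range, was 0.851 for Fos in MABs-allo at 3d (library 1, 1207 normalized counts against 1634 to 1723), 0.947 for Atf3 in MABs-allo-VEGF at 7d (library 6, 1607 against 2982 to 3086) and 0.914 for Ier2 in MABs-allo-VEGF at 3d (library 2, 1317 against 2270 to 2390). It was 0.948 for Ier3 in saline at 7d (library 2, 2838 against 4236 to 4329) and 0.949 for Nr4a1 in the same library (142 against 524 to 563). In all 5 the library was the lowest of its group, and saline library 2 of 7d was so for both Ier3 and Nr4a1.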

How the results depend on the processing

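The log2 differences of called members and of the member with the lowest p in each comparison of groups were followed through all alternatives other than leaving out single libraries. Of these values 166 stayed on their side of the thresholds, 2 passed them newly and 3 no longer did, and no difference changed sign. Outside this count are the calls of Fosb in MABs-allo between the days by edgeR and DESeq2. So are those of Fos in MABs-allo-VEGF against saline at 3d and of the Nr4a1 interaction with 22 libraries. With sample quality weights, 1 member was called in MABs-allo against saline at 3d, 3 in MABs-allo between the days and 1 in the interaction of MABs-allo-VEGF and saline with the day. With only the groups compared, 0 were called in saline between the days. With 22 libraries, 1 was called in MABs-allo against saline at 3d, 1 in MABs-allo-VEGF against saline at 3d and 1 in the interaction of MABs-allo-VEGF and saline. Leaving out each library in turn gave 0 to 1 members in MABs-allo against saline at 3d (1 without saline 6 or MABs-allo-VEGF 4 of 3d), 1 to 2 in saline between the days (2 without saline 2 of 7d), 4 to 6 in MABs-allo and 3 to 5 in MABs-allo-VEGF. The 27 of 45 pairs of members that passed for rho over all 24 libraries became 23 to 28 when 1 library was left out and 24 with 22 libraries. Within a day, a split chosen after seeing the data, they were 5 at 3d and 11 at 7d. Libraries of MABs-allo and MABs-allo-VEGF at 3d share the numbers 1 to 4, with correlations of their deviations of 0.22, 0.15, 0.07 and 0.25, and numbers 1, 2 and 4 correlated best with themselves. Number 3, at 0.07, did not. No block was used in the comparisons above, because the numbers were taken to name animals and the methods of the study use no block. The other values leave some shared structure by number possible. With the replicate block 0 members were called between them, and Ier3 differed by 0.49 (adjusted p = 0.779, limma). Among the members, reads limit Nr4a1 and Fosb at 3d most.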
